A study of Homo sapiens with 4 samples.

Results

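The amino acid transporters described here were 10 genes, namely SLC3A2, SLC7A5, SLC7A11, SLC7A1, SLC1A4, SLC1A5, SLC38A1, SLC38A2, SLC6A9 and SLC43A1. They were chosen by gene symbol among 24462 genes in the count tables, and although the rule itself uses no measured value, the list was drawn up with earlier results of these data known. All 10 were found, each as 1 entry, and all 10 passed the filter on low values (at least 10 reads in either library of a comparison) in every comparison. RNA was sequenced from HepG2, an established human liver cancer line labelled as hepatocellular carcinoma and grown in RPMI with fetal bovine serum. There were 4 groups, namely cells given the vehicle DMSO, cells given PD0332991 (PD-0332991 in the labels, a small molecule that inhibits the kinases CDK4 and CDK6, also known as palbociclib), cells labelled as scrambled control (transfected with scrambled siRNA), and cells transfected with siRNA against both CDK4 and CDK6 (CDK4/6 KD). Each group was 1 library, so differences could not be held against replicates and p-values are not given. The dose and duration of PD0332991 and the time after transfection for the sequenced cells were not given in the sources used here. The libraries were bulk RNA, in which fewer cells of a type and less RNA per cell cannot be told apart.

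Amino acid transporters are membrane proteins that move amino acids into and out of cells, and many work as exchangers or use the sodium gradient. SLC3A2 (CD98, 4F2hc) is a heavy chain that brings several SLC7 light chains to the plasma membrane, among them SLC7A5 (LAT1), which imports leucine and other large neutral amino acids, and SLC7A11 (xCT), which imports cystine in exchange for glutamate and so feeds glutathione synthesis. SLC7A1 (CAT1) carries arginine and lysine, SLC1A4 (ASCT1) and SLC1A5 (ASCT2) exchange small neutral amino acids and, for SLC1A5, glutamine, and SLC38A1 and SLC38A2 (SNAT1 and SNAT2) take up neutral amino acids with sodium. SLC6A9 (GLYT1) takes up glycine with sodium and chloride, and SLC43A1 (LAT3) is a facilitated carrier of branched-chain amino acids. Several of these genes are known targets of ATF4, the transcription factor made when amino acid shortage or stress activates a kinase of eIF2alpha. Proliferating liver cancer cells are known for high LAT1, ASCT2 and xCT, whereas resting hepatocytes take up amino acids largely through other carriers.

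The 4 libraries held 8983848 to 11176880 reads assigned to genes. The targeted genes checked the siRNA label, since CDK4 went from 3789 reads with scrambled siRNA to 814 with the CDK4 and CDK6 siRNAs (0.203-fold) and CDK6 from 5734 to 1464 (0.241-fold). MKI67, a marker of cycling cells, was 0.561-fold in CDK4/6 KD and 0.0757-fold after PD0332991. The 10 hepatocyte markers fixed for the check were present in every library (summed 15687 to 20586 CPM, that is, reads per 1000000 after scaling). Of the other cell types, 3 of 4 endothelial markers were at 0 in both control libraries and 2 of 4 in both treated libraries, and their summed level was below 1 CPM in each. Of 6 leukocyte markers 4 had more than 3 reads in every library, while CD3E was at 0 in all 4 and PTPRC in all but DMSO. Their summed level was 755 CPM in DMSO, 521 after PD0332991, 1036 in scrambled siRNA and 511 in CDK4/6 KD, nearly all of it from LYZ, which encodes lysozyme (742, 504, 1022 and 501 CPM). Keratinocyte markers were uneven. KRT14 had 9 reads in DMSO, 249 after PD0332991, 31 in scrambled siRNA and 74 in CDK4/6 KD. In all, 7 of the 9 keratinocyte markers tested were 2-fold or more higher after PD0332991 than in DMSO, against 7.49% of all genes tested. In scrambled siRNA over DMSO 6 of 9 were, against 5.30%. Several of these markers had few reads in DMSO, such as KRT5 and KRT16 with 2 each and SPRR1B with 4. Of the 9, 1 was 2-fold or more lower after PD0332991, SFN with 1221 reads in DMSO and 563 after PD0332991. Summed over all 16 keratinocyte markers the level was 210 CPM in DMSO, 236 after PD0332991, 373 in scrambled siRNA and 211 in CDK4/6 KD, with LOR at 0 in all 4 libraries. Most of each sum came from SFN (134, 61.8, 305 and 102 CPM) and KRT10 (66.3, 77.0, 48.0 and 87.1 CPM), so the sums say little about the other markers. Summed fibroblast markers were 48.0, 78.0, 8.60 and 22.7 CPM in the same order. These markers differed between the libraries compared below, and their part in the transporter results was not tested.

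Levels are given as CPM, that is, reads as a share of the library total after TMM scaling, in parts per 1000000 reads, with exact Poisson 95% intervals that cover counting error only. The kit places reads at the 3′ end of each transcript, so counts were not divided by gene length and levels of different genes were set side by side on that footing. Together the 10 genes held 0.173% of reads in DMSO, 0.231% after PD0332991, 0.217% in scrambled siRNA and 0.205% in CDK4/6 KD. SLC38A2 was the most abundant member in all 4 libraries and SLC6A9 the least abundant, 39.0-fold apart in DMSO and 62.9-fold in scrambled siRNA, but 12.4-fold after PD0332991 and 13.8-fold in CDK4/6 KD. In DMSO the order was SLC38A2, SLC7A5, SLC3A2, SLC38A1, SLC1A5, SLC7A1, SLC1A4, SLC43A1, SLC7A11 and SLC6A9, and the intervals of the neighbours SLC1A4 and SLC43A1 overlapped. After PD0332991 SLC7A11 moved up to follow SLC1A5, where its interval overlapped that of SLC43A1, and the neighbours SLC43A1 and SLC7A1, and SLC7A1 and SLC38A1, also overlapped. In scrambled siRNA the overlapping neighbours were SLC38A1 with SLC7A11 and SLC7A1 with SLC43A1. In the CDK4/6 KD library SLC7A5 stood last but for SLC6A9, and SLC1A4 came after SLC38A2 and SLC3A2, with an interval overlapping that of SLC3A2. The other overlapping neighbours there were SLC7A1 with SLC38A1 and SLC43A1 with SLC7A5.

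**Figure D1:**
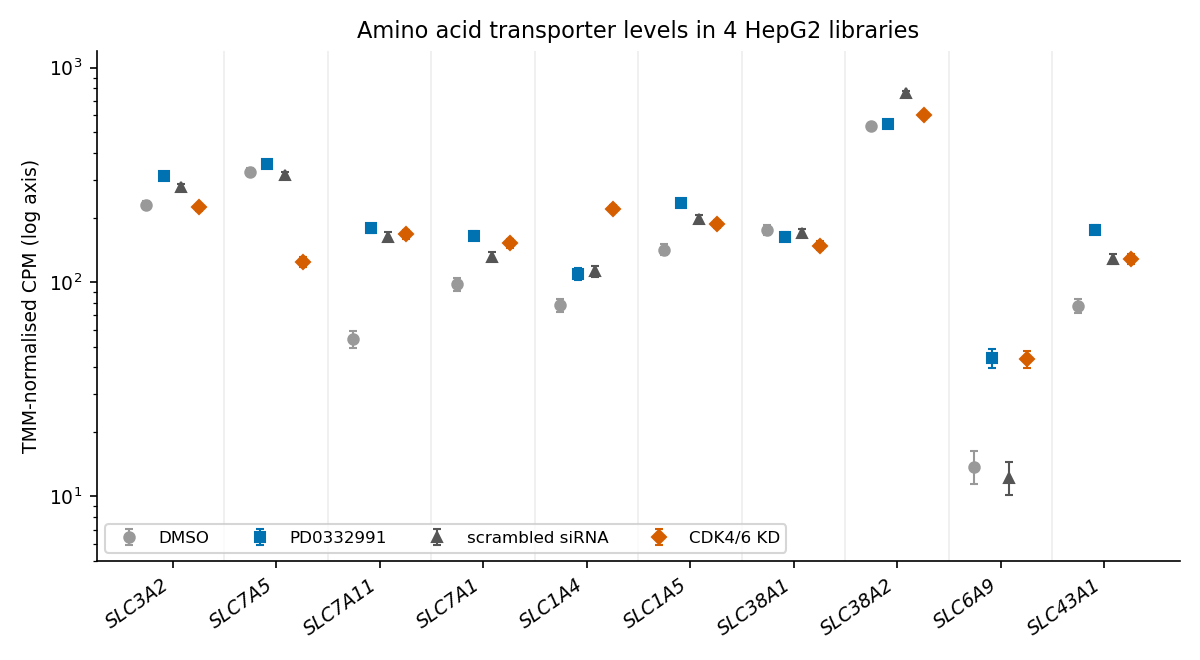
Level of each of the 10 amino acid transporter genes (TMM-normalised CPM, log axis) in the DMSO, PD0332991, scrambled siRNA and CDK4/6 KD libraries, 1 library per group, with bars for exact Poisson 95% intervals (counting error only). SLC7A11 was low in DMSO alone (54.0 CPM against 163 to 178), SLC6A9 was high in PD0332991 and CDK4/6 KD (44.0 and 43.6 CPM against 13.7 and 12.1), and SLC7A5 was low in CDK4/6 KD alone (124 CPM against 315 to 354).

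RefSeq promoter windows (GRCh38.p14, 250 bases before to 50 after a start site) were read for 9 of the 10 members, 16 windows in all because several genes have more than 1 start site. SLC7A11 was not in that table. The letters TGATGNAA, a form of the C/EBP-ATF response element (CARE) to which ATF4 binds, were searched on both strands. They were found in 5 of the 16 windows, those of SLC1A4, SLC7A1, SLC3A2, SLC1A5 and SLC38A1, and in 3.62% of 35116 RefSeq windows of the same length. A match describes letters and is no evidence of binding, and no match says only that these letters are not in the window. The windows below are those of 3 members with a match and of the members with the lowest and highest fold in CDK4/6 KD, SLC7A5 and SLC6A9, which held none. They are written 5′ to 3′ on the strand of the gene, with the CARE match in capitals.
SLC1A4, chr2:64989149-64989448, plus strand: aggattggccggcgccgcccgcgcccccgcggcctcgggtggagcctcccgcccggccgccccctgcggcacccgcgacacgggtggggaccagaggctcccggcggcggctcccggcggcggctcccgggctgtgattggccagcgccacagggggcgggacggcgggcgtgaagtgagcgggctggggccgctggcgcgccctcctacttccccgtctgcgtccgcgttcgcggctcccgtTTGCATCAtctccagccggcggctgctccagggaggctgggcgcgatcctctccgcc
SLC7A1, chr13:29595639-29595938, minus strand: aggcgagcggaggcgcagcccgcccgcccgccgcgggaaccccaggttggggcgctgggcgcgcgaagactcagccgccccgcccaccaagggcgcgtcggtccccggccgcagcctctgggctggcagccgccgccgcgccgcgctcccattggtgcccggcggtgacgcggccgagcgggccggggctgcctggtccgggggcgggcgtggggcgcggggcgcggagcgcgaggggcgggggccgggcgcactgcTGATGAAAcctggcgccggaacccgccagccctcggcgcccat
SLC3A2, chr11:62881449-62881748, plus strand: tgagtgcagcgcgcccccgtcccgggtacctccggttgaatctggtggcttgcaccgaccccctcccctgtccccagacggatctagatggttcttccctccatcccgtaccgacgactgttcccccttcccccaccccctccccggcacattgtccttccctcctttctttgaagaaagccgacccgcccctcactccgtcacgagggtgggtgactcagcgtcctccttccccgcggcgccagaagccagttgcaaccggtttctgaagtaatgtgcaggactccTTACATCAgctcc
SLC7A5, chr16:87869458-87869757, minus strand: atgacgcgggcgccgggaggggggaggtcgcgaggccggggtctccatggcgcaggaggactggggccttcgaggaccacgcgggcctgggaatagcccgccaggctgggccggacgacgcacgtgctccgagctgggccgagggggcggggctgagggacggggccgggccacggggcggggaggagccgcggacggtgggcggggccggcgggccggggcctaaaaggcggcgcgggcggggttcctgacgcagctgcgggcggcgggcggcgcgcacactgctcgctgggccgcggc
SLC6A9, chr1:44031413-44031712, minus strand: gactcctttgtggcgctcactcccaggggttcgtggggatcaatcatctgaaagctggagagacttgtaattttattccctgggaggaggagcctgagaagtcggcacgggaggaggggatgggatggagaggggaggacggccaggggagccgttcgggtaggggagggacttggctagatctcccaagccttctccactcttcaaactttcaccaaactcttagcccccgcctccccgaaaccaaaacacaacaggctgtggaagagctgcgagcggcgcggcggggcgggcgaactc
Counted with the start base as 0, the SLC1A4 match (TTGCATCA, the motif on the opposite strand) spanned -7 to 0, the SLC7A1 match (TGATGAAA) spanned 7 to 14 and the SLC3A2 match (TTACATCA, opposite strand) spanned 37 to 44. The matches in the windows not shown were TGATGCAA at -97 to -90 before a start of SLC1A5 and TGATGAAA at -4 to 3 around a start of SLC38A1. TGACNNNGC, a form of the site bound by NRF2, was in 4 of the 16 windows (SLC1A5, SLC3A2, SLC7A1 and SLC7A5) and in 13.3% of all windows. The E-box CACGTG, which MYC can bind, was in 3 (SLC1A5, SLC43A1 and SLC7A5) and in 7.26% of all windows. TTTGGCGC, a form of the E2F site, was in none of the 16 and in 0.652% of all windows.

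The siRNA arm asked how transporter transcripts stood when both kinases were depleted. In CDK4/6 KD over scrambled siRNA 1 of the 10 members was 2-fold or more higher, SLC6A9, against 9.19% of the 13617 genes tested, and 1 was 2-fold or more lower, SLC7A5, against 7.62% of genes. The 95% counting interval of the fold (exact Clopper-Pearson, counting error only) lay above 1 for 3 members and below 1 for 4, where 30.0% of all genes lay above and 31.9% below. Such intervals narrow as reads increase. The members had at least 125 reads in each library, whereas all genes tested include those reaching only 10. Here and below, the shares of intervals are therefore not a like-for-like baseline for the members. The median log2 fold was -0.043 over the members and -0.0036 over all genes tested. The drug arm asked the same with the kinases inhibited and not depleted. After PD0332991, over DMSO, 3 members were 2-fold or more higher, SLC7A11, SLC6A9 and SLC43A1, against 7.49% of 13443 genes, and 0 were 2-fold or more lower, against 7.06%. The interval lay above 1 for 8 members and below 1 for 0, against 28.1% and 28.6% of all genes. The members' median log2 fold was 0.60, beside 0.018 over all genes.

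The DMSO and scrambled siRNA libraries, neither of them given a CDK4/6 inhibitor or CDK4/6 siRNA, were compared to see how far the controls differed. In scrambled siRNA over DMSO 1 member was 2-fold or more higher, SLC7A11, against 5.30% of 13303 genes, and 0 were 2-fold or more lower, against 6.64%. The interval lay above 1 for 7 members and below 1 for 0, against 28.3% and 28.0% of all genes. The members' median log2 fold was 0.45, beside 0.0088 over all genes. The controls thus stood apart for most members, in the same direction as PD0332991 from DMSO. When the controls were exchanged, the members' median was 0.51 in CDK4/6 KD over DMSO, with 3 members 2-fold or more higher (background 8.04%) and 1 lower (background 8.16%). It was 0.17 in PD0332991 over scrambled siRNA, with 1 member higher (background 10.6%) and 0 lower (background 8.17%). Comparisons over DMSO share that library and those over scrambled siRNA share the other, so their values for a gene are not independent of each other.

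**Figure D2:**
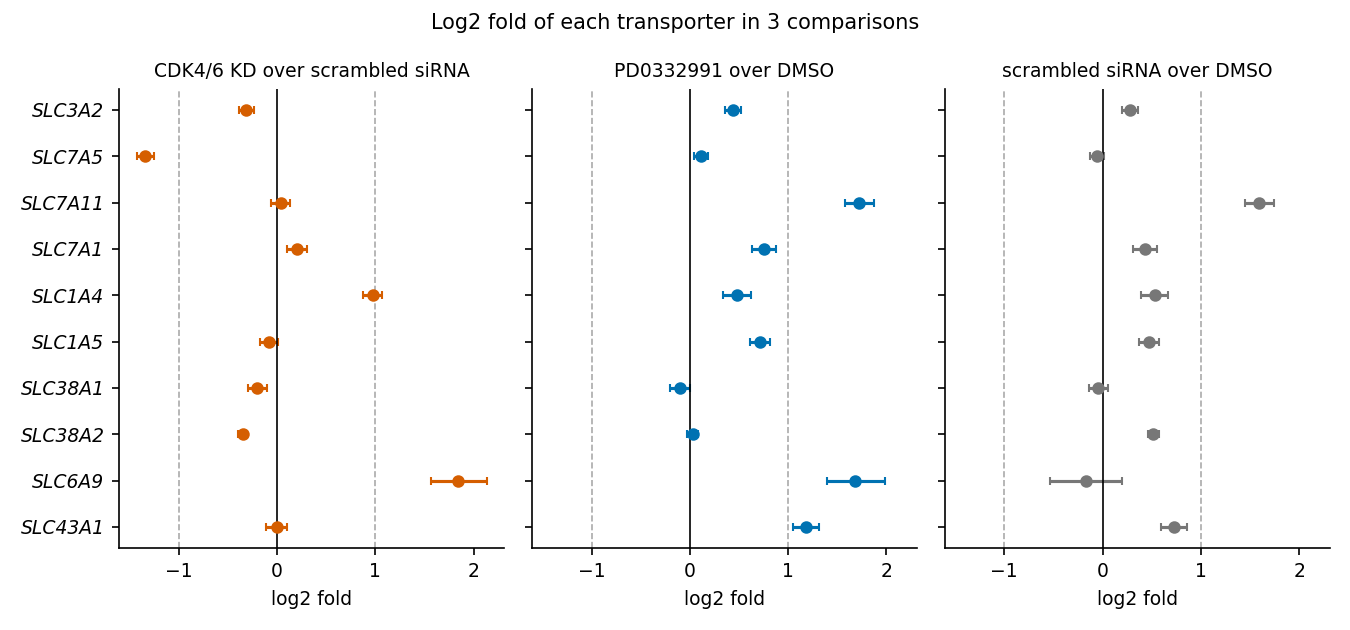
Log2 fold of each transporter gene in CDK4/6 KD over scrambled siRNA, in PD0332991 over DMSO and in scrambled siRNA over DMSO, with 95% counting intervals, 1 library per group, and dashed lines at 2-fold. SLC6A9 lay past 2-fold in both treated libraries and not between the controls, whereas SLC7A11 lay past 2-fold after PD0332991 and between the controls (3.30-fold and 3.02-fold).

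SLC3A2, the shared heavy chain (ENSG00000168003, chr11:62856102-62888875, plus strand, GRCh38, GENCODE 29), had 2096 reads in DMSO, 2835 after PD0332991, 2969 in scrambled siRNA and 2528 in CDK4/6 KD, that is, 229, 311, 277 and 223 CPM. It was highest after PD0332991, and its intervals overlapped between DMSO and CDK4/6 KD. The fold was 0.805 (0.763 to 0.849) in CDK4/6 KD over scrambled siRNA and 1.36 (1.28 to 1.44) in PD0332991 over DMSO. The directions thus differed between the arms, and the 2 control libraries differed by 1.21-fold (1.14 to 1.28). In CDK4/6 KD over DMSO the fold was 0.974 (0.918 to 1.03), so the lower value in CDK4/6 KD was not seen against the other control.

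SLC7A5, the leucine-importing light chain (ENSG00000103257, chr16:87830023-87869488, minus strand), had 2990 reads in DMSO, 3224 after PD0332991, 3369 in scrambled siRNA and 1409 in CDK4/6 KD, or 327, 354, 315 and 124 CPM. CDK4/6 KD was far below the other 3 libraries, and PD0332991 was slightly above both controls, with no overlap of intervals. The fold was 0.395 (0.371 to 0.421) over scrambled siRNA and 0.380 (0.357 to 0.405) over DMSO, while the controls differed by 0.962-fold (0.916 to 1.01). After PD0332991 it was 1.08 (1.03 to 1.14) over DMSO and 1.12 (1.07 to 1.18) over scrambled siRNA. The siRNA fold divided by the drug fold was 0.365 (0.337 to 0.396). SLC7A5 has near-identical pseudogene copies, and SLC7A5P1 and SLC7A5P2 together took 102, 78, 109 and 107 reads in the same order of libraries. That was 3.41%, 2.42%, 3.24% and 7.59% of the SLC7A5 count, so the copies held few reads beside SLC7A5 in every library.

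SLC7A11, the cystine importer (ENSG00000151012, chr4:138164097-138242349, minus strand), had 493 reads in DMSO, 1622 after PD0332991, 1743 in scrambled siRNA and 1889 in CDK4/6 KD, or 54.0, 178, 163 and 167 CPM. DMSO was the library that stood apart, below the other 3. PD0332991 was 3.30-fold (2.98 to 3.66) over DMSO but 1.09-fold (1.02 to 1.17) over scrambled siRNA. CDK4/6 KD was 1.02-fold (0.959 to 1.09) over scrambled siRNA but 3.09-fold (2.80 to 3.42) over DMSO. Scrambled siRNA itself was 3.02-fold (2.73 to 3.34) over DMSO, so the call for this gene followed the choice of control. The exons of SLC7A11 share 276 bases with SLC7A11-AS1 on the other strand, which had 21, 37, 74 and 74 reads, 2.28% to 4.26% of the SLC7A11 count. Whether the authors' counting used strand was not given in the sources used here, and without strand the reads of such a pair cannot be told apart.

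Transcripts of SLC7A5 and SLC7A11 were set against those of their shared heavy chain by the ratio of reads within each library. No scaling between libraries can change such a ratio. It does not show how the proteins pair, and other light chains of SLC3A2 were not included. SLC7A5 had 1.43 reads per SLC3A2 read (1.35 to 1.51) in DMSO, 1.14 (1.08 to 1.20) after PD0332991, 1.13 (1.08 to 1.19) in scrambled siRNA and 0.557 (0.522 to 0.595) in CDK4/6 KD. SLC7A11 had 0.235 (0.213 to 0.260), 0.572 (0.538 to 0.608), 0.587 (0.553 to 0.623) and 0.747 (0.704 to 0.793) reads per SLC3A2 read in the same order. For both ratios the intervals of PD0332991 and scrambled siRNA overlapped, and DMSO and CDK4/6 KD lay outside them on opposite sides. Set against each other, SLC7A5 had 6.06 reads per SLC7A11 read in DMSO, 1.99 after PD0332991, 1.93 in scrambled siRNA and 0.746 in CDK4/6 KD. CDK4/6 KD was the only library with more reads from the cystine importer than from the leucine importer.

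**Figure D3:**
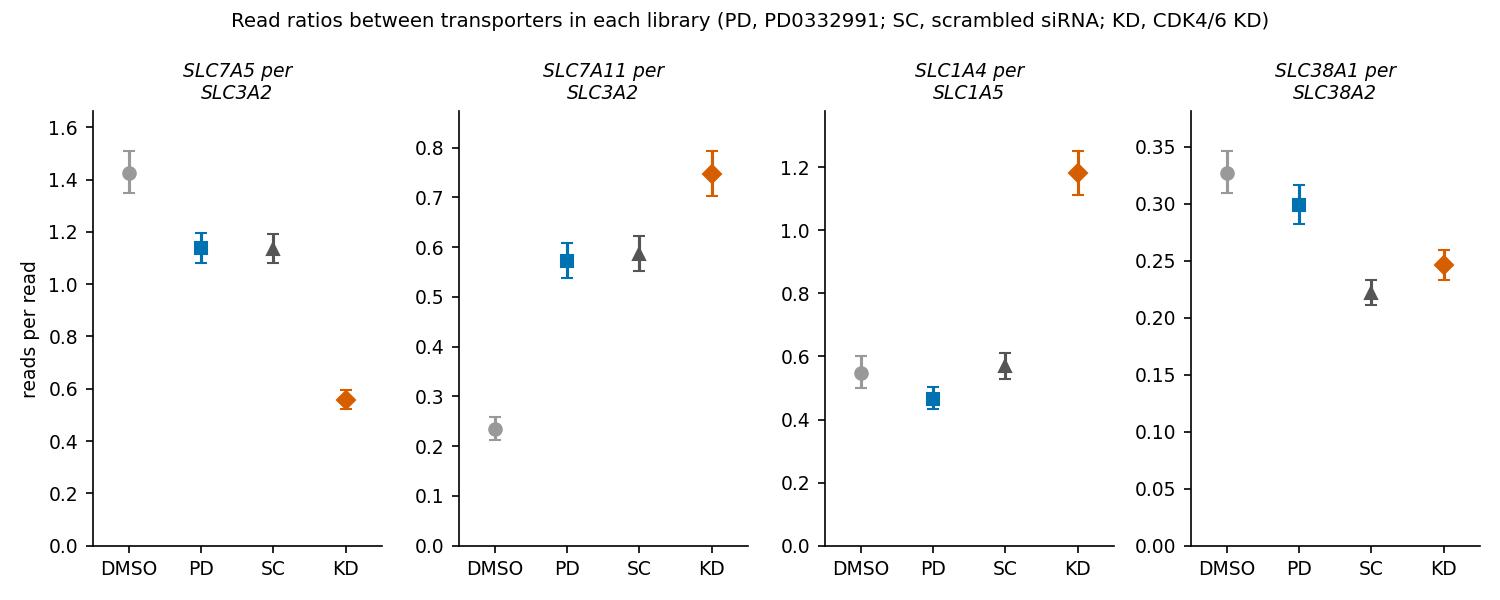
Ratio of reads between pairs of transporter genes in each of the 4 libraries, with 95% counting intervals. The SLC7A5 to SLC3A2 ratio was lowest in CDK4/6 KD (0.557) and the SLC7A11 to SLC3A2 and SLC1A4 to SLC1A5 ratios were highest there (0.747 and 1.18), while the SLC38A1 to SLC38A2 ratio was highest in DMSO (0.327).

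SLC7A1, the arginine and lysine carrier (ENSG00000139514, chr13:29509410-29595688, minus strand), had 892 reads in DMSO, 1501 after PD0332991, 1407 in scrambled siRNA and 1713 in CDK4/6 KD, or 97.6, 165, 131 and 151 CPM. Each treated library was above its control, by 1.15-fold (1.07 to 1.24) in CDK4/6 KD and 1.69-fold (1.55 to 1.84) after PD0332991. The controls differed by 1.35-fold (1.24 to 1.47), which was more than the difference in the siRNA arm.

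SLC1A4, an exchanger of alanine, serine, cysteine and threonine (ENSG00000115902, chr2:64988477-65023865, plus strand), had 711 reads in DMSO, 990 after PD0332991, 1201 in scrambled siRNA and 2490 in CDK4/6 KD, or 77.8, 109, 112 and 220 CPM. CDK4/6 KD was the highest library, the intervals of PD0332991 and scrambled siRNA overlapped, and DMSO was lowest. The fold in CDK4/6 KD was 1.96 (1.83 to 2.10), just short of 2-fold, and it was 2.11 when scaled by total counts or by quantile normalization. It was 2.83 (2.60 to 3.08) over DMSO. After PD0332991 it was 1.40 (1.27 to 1.54) over DMSO and 0.969 (0.890 to 1.05) over scrambled siRNA. The siRNA fold divided by the drug fold was 1.40 (1.25 to 1.58).

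SLC1A5, the glutamine exchanger of the same family (ENSG00000105281, chr19:46774883-46788594, minus strand), had 1296 reads in DMSO, 2122 after PD0332991, 2110 in scrambled siRNA and 2109 in CDK4/6 KD, or 142, 233, 197 and 186 CPM. DMSO was again the lowest library. The fold was 0.945 (0.889 to 1.004) in CDK4/6 KD and 1.64 (1.53 to 1.76) after PD0332991, and the controls differed by 1.39-fold (1.30 to 1.49). The ASCT pair did not keep 1 ratio, since SLC1A4 had 0.549 reads per SLC1A5 read in DMSO, 0.467 after PD0332991, 0.569 in scrambled siRNA and 1.18 (1.11 to 1.25) in CDK4/6 KD. CDK4/6 KD was thus the only library with more SLC1A4 than SLC1A5 reads.

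SLC38A1 (ENSG00000111371, chr12:46183063-46270017, minus strand), a sodium-coupled glutamine carrier, had 1598, 1484, 1816 and 1672 reads in DMSO, PD0332991, scrambled siRNA and CDK4/6 KD, or 175, 163, 170 and 148 CPM. It was the most even of the members across the 4 libraries. The fold was 0.870 (0.814 to 0.931) in CDK4/6 KD and 0.932 (0.868 to 1.001) after PD0332991, beside 0.970 (0.907 to 1.04) between the controls. SLC38A2 (ENSG00000134294, chr12:46358189-46372867, minus strand), its neighbour on the chromosome and the carrier that cells induce when amino acids run short, had 4881, 4963, 8180 and 6796 reads, or 534, 545, 764 and 600 CPM. The scrambled siRNA library stood above the other 3. The fold was 0.785 (0.760 to 0.811) in CDK4/6 KD over scrambled siRNA but 1.12 (1.08 to 1.17) over DMSO, and it was 1.02 (0.981 to 1.06) after PD0332991 over DMSO but 0.713 (0.688 to 0.739) over scrambled siRNA. The direction for SLC38A2 therefore changed with the control, and the controls differed by 1.43-fold (1.38 to 1.48).

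SLC6A9, the glycine transporter (ENSG00000196517, chr1:43991500-44031467, minus strand), had 125 reads in DMSO, 401 after PD0332991, 130 in scrambled siRNA and 493 in CDK4/6 KD, or 13.7, 44.0, 12.1 and 43.6 CPM. Both treated libraries stood above both controls with no overlap of intervals, and the intervals of the controls overlapped. The fold was 3.58 (2.95 to 4.38) in CDK4/6 KD and 3.21 (2.63 to 3.97) after PD0332991, and 0.888 (0.689 to 1.14) between the controls. With the controls exchanged it was 3.18 (2.61 to 3.91) and 3.61 (2.97 to 4.45). SLC6A9 was the only member past 2-fold in the same direction in each of these 4 comparisons. The siRNA fold divided by the drug fold was 1.11 (0.843 to 1.47), an interval that includes 1. Among 13099 genes tested in both arms 240 were 2-fold or more higher in both.

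The SLC6A9 count carries a limit from its neighbour. CCDC24 lies on the other strand of chromosome 1, over the annotated 3′ end of SLC6A9, where this kit places its reads. The exons of the genes share 331 bases. CCDC24 had 104 reads in DMSO, 311 after PD0332991, 121 in scrambled siRNA and 393 in CDK4/6 KD, which was 83.2%, 77.6%, 93.1% and 79.7% of the SLC6A9 count. Its folds, 3.06 (2.50 to 3.80) in CDK4/6 KD and 2.99 (2.40 to 3.78) after PD0332991, were near those of SLC6A9. Since strand use in the counting was not given, the reads of SLC6A9 and of CCDC24 cannot be told apart, and the SLC6A9 values are uncertain to that extent.

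SLC43A1, the facilitated carrier of branched-chain amino acids (ENSG00000149150, chr11:57484534-57515786, minus strand), had 708 reads in DMSO, 1600 after PD0332991, 1371 in scrambled siRNA and 1447 in CDK4/6 KD, or 77.5, 176, 128 and 128 CPM. The interval in the siRNA arm included 1, at 0.998-fold (0.926 to 1.07), and both siRNA libraries lay between DMSO and PD0332991. The fold after PD0332991 was 2.27 (2.07 to 2.48) over DMSO and 1.37 (1.28 to 1.48) over scrambled siRNA, and the controls differed by 1.65-fold (1.51 to 1.81).

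Across the arms, the siRNA fold divided by the drug fold had an interval below 1 for 7 members, against 27.8% of the 13099 genes tested in both arms, above 1 for SLC1A4, against 28.0%, and including 1 for SLC38A1 and SLC6A9. SLC3A2 and SLC7A5 had intervals on opposite sides of 1 in the arms, as had 12.9% of those genes. Against scrambled siRNA as the common control, PD0332991 and CDK4/6 KD were near each other for SLC7A11 (1.09 and 1.02) and SLC6A9 (3.61 and 3.58). They remained apart for SLC7A5 (1.12 and 0.395), SLC1A4 (0.969 and 1.96), SLC3A2 (1.12 and 0.805), SLC43A1 (1.37 and 0.998) and SLC1A5 (1.18 and 0.945). For SLC7A1 the folds were 1.25 and 1.15, and for SLC38A1 0.960 and 0.870. For SLC38A2 they were 0.713 and 0.785, so CDK4/6 KD was the higher, although its siRNA fold divided by its drug fold was 0.770.

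**Figure D4:**
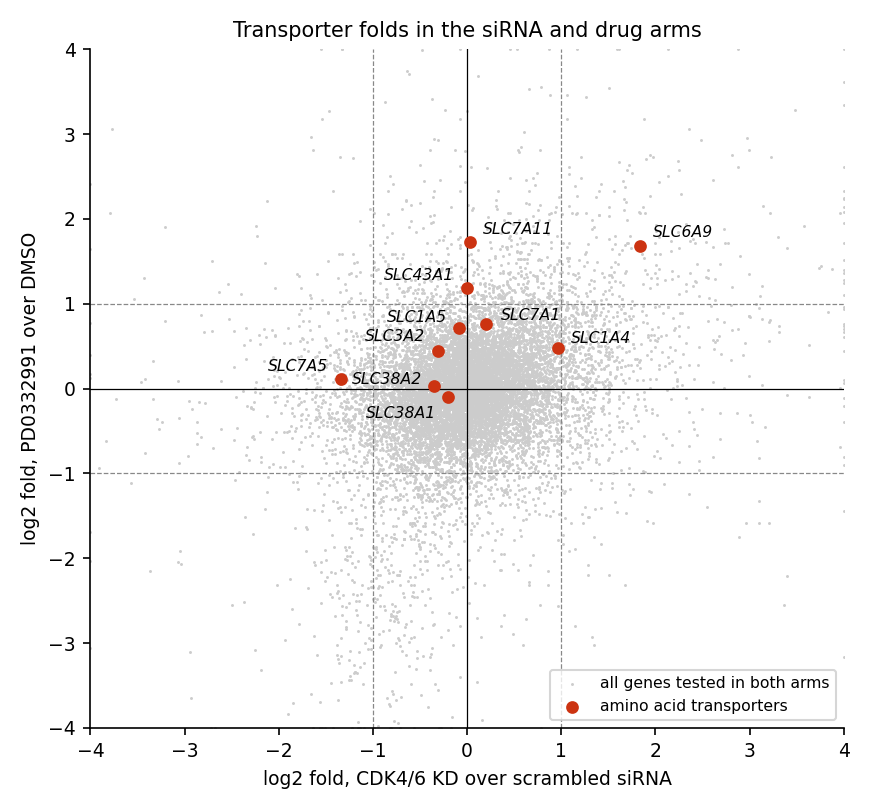
Log2 fold in CDK4/6 KD over scrambled siRNA (horizontal axis) against log2 fold in PD0332991 over DMSO (vertical axis) for the 10 transporter genes (red) and all 13099 genes tested in both arms (grey, values past 4 drawn at the edge), 1 library per group, with dashed lines at 2-fold. SLC6A9 lay past 2-fold on both axes, SLC7A5 past 2-fold lower on the horizontal axis only, and SLC7A11 and SLC43A1 past 2-fold on the vertical axis only.

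Counts for the lists below stand beside the shares of all genes past 2-fold. In CDK4/6 KD 9.19% of genes were higher and 7.62% lower. After PD0332991 the shares were 7.49% and 7.06%, and between the controls 5.30% and 6.64%. Other amino acid transporters of the plasma membrane were mostly at low counts, and 13 of 30 were tested. With the CDK4/6 siRNAs 3 of the 13 were 2-fold or more higher and 1 lower, with a median log2 fold of 0.30. SLC38A4, a liver carrier of neutral and cationic amino acids, had 41 reads in DMSO, 42 after PD0332991, 22 in scrambled siRNA and 115 in CDK4/6 KD, a fold of 4.86 (3.11 to 8.19) in the siRNA arm. SLC16A10, a carrier of aromatic amino acids, was 2.43-fold (1.82 to 3.33) and SLC7A10, which carries small neutral amino acids, was 2.51-fold (1.44 to 4.76). SLC38A5, another carrier of glutamine, was lower, with 901 reads in the siRNA control and 327 with the CDK4/6 siRNAs (0.343-fold, 0.301 to 0.390). After PD0332991 the folds of SLC38A4, SLC16A10, SLC7A10 and SLC38A5 were 1.03, 0.562, 1.03 and 0.891. Between the controls they were 0.464, 0.519, 0.337 and 1.27, so the scrambled siRNA library stood apart from DMSO for each of these genes. After PD0332991 2 of the 13 were 2-fold or more higher, SLC7A9 at 2.31 (1.54 to 3.60) and SLC7A7 at 2.36 (1.53 to 3.82), both light chains of other transport systems, and 0 were lower. Between the controls 1 was higher, SLC7A9 at 2.07 (1.38 to 3.21), and 5 were lower, among them SLC6A14 (0.415), SLC7A2 (0.432) and SLC1A2 (0.385).

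Of the 18 transporters of mitochondria and lysosomes, 16 were tested. In CDK4/6 KD 1 was 2-fold or more higher, SLC25A18, a glutamate carrier of mitochondria, on 14 and 6 reads (2.12-fold, 0.796 to 7.0), and 0 were lower. SLC25A18 had 22 reads in DMSO, a log2 fold of -2.01 in scrambled siRNA over DMSO. Its level in CDK4/6 KD, 1.24 CPM, was thus below that in DMSO, 2.41 CPM. After PD0332991 1 was higher, the lysosomal carrier PQLC2 on 36 and 15 reads (2.36-fold, 1.29 to 4.73), which was also 3.68-fold (2.12 to 7.09) between the controls. The list's median log2 fold was -0.090 in CDK4/6 KD and -0.010 after PD0332991. The interval lay below 1 for 7 of the 16 and above 1 for 2 in the siRNA arm, and below 1 for 1 and above 1 for 3 in the drug arm. Over all genes 31.9% lay below 1 and 30.0% above in the siRNA arm, and 28.6% and 28.1% in the drug arm.

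The ATF4 and amino acid response list held 20 genes, among them the factor itself, the eIF2alpha kinases and known targets. Under CDK4/6 KD 7 of 20 tested were 2-fold or more higher and 0 lower, against 9.19% and 7.62% of all genes, with a median log2 fold of 0.49. VLDLR, a lipoprotein receptor, was 9.31-fold (5.63 to 17.5) on 152 and 15 reads, JDP2, a basic leucine zipper protein, was 4.48-fold (3.61 to 5.64), and CHAC1, which degrades glutathione, was 6.38-fold (3.05 to 17.7) on 50 and 7 reads. After PD0332991 6 of 19 tested were higher and 0 lower, against 7.49% and 7.06% of all genes, with a median of 0.66. ASNS, the asparagine synthetase that ATF4 induces, had 578 reads in DMSO, 3003 after PD0332991, 1275 in scrambled siRNA and 4308 in CDK4/6 KD. It was 5.21-fold (4.77 to 5.71) after PD0332991 and 3.19-fold (3.0 to 3.4) in CDK4/6 KD, beside 1.88-fold (1.71 to 2.08) between the controls. NUPR1, a stress-induced nuclear protein, was 4.69-fold (4.24 to 5.20) after PD0332991 and 3.17-fold (2.88 to 3.50) in CDK4/6 KD, beside 1.02-fold (0.898 to 1.16) between the controls. DDIT4, an inhibitor of mTORC1, was 2.87-fold (2.50 to 3.31) after PD0332991 and 2.76-fold (2.41 to 3.17) between the controls, where it was the only gene of 19 past 2-fold. ASNS and NUPR1 were thus higher in both arms, like SLC6A9. SLC7A5, SLC38A2 and SLC3A2, which are textbook members of the same response, had intervals below 1 in the siRNA arm. SLC7A5 alone of these was lower over DMSO as well. In the siRNA arm the list itself had intervals above 1 for 16 of 20 genes and below 1 for 2. The shares of all genes were 30.0% and 31.9%. PPP1R15A and ATF5 were among the lower genes of the list there, with log2 folds of -0.696 and -0.535. Of the 5 members with a CARE match, SLC1A4 and SLC7A1 had intervals above 1 in CDK4/6 KD, SLC3A2 and SLC38A1 below 1 and SLC1A5 including 1. After PD0332991 the same interval lay above 1 for SLC1A4, SLC7A1, SLC3A2 and SLC1A5 and included 1 for SLC38A1. Of the 4 members whose windows held no match, SLC6A9 was above 1, SLC7A5 and SLC38A2 below 1 and SLC43A1 included 1 in CDK4/6 KD, and after PD0332991 SLC6A9, SLC7A5 and SLC43A1 were above 1 and SLC38A2 included 1. The part of the element in these folds was not tested.

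**Figure D5:**
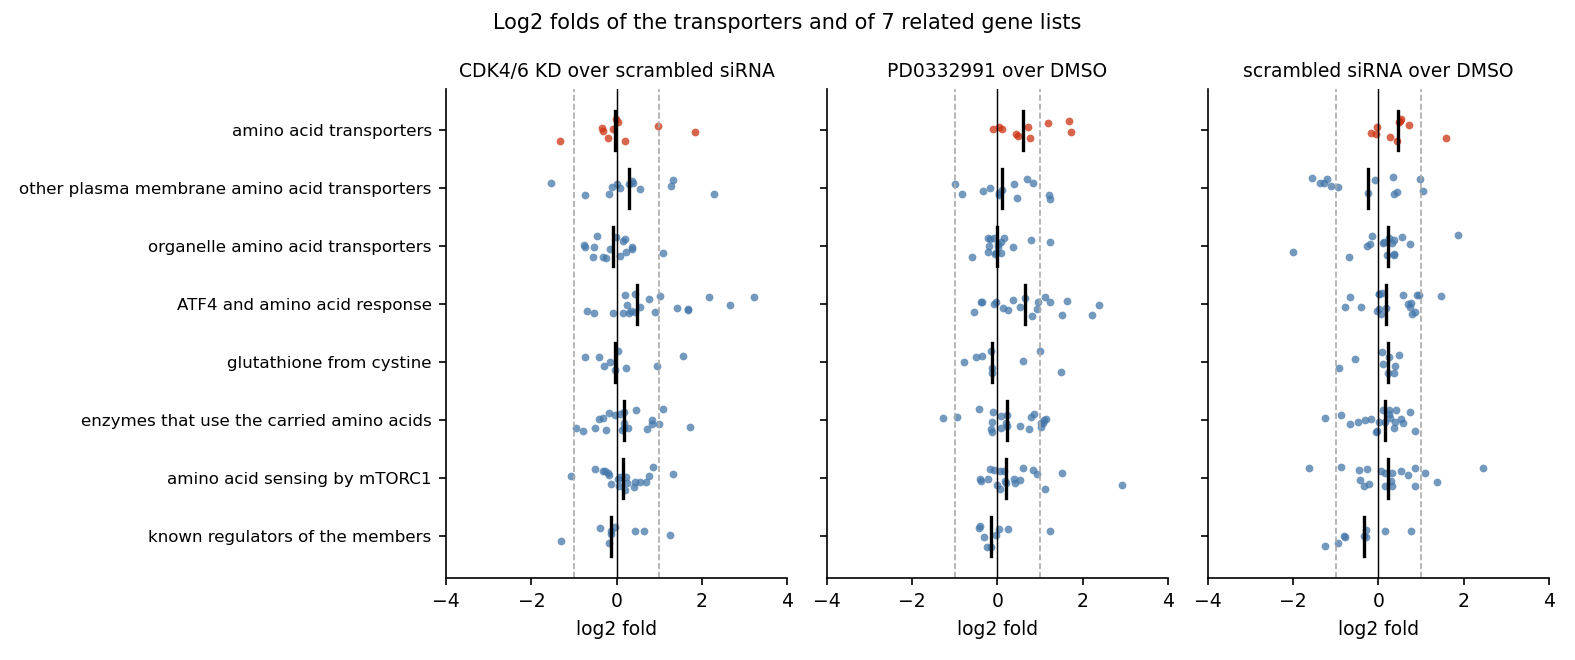
Log2 folds of the 10 transporters (red) and of the tested genes of 7 related lists (blue) in 3 comparisons, 1 library per group, with black bars at each list's median and dashed lines at 2-fold. The ATF4 and amino acid response list had the highest median of the 8 rows in CDK4/6 KD (0.49) and after PD0332991 (0.66), and the transporters had the highest median in scrambled siRNA over DMSO (0.45).

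Of the 9 genes listed for cysteine and glutathione metabolism, CTH, which makes cysteine from cystathionine, was the only gene past 2-fold in each arm. It had 77 reads in DMSO, 217 after PD0332991, 107 in scrambled siRNA and 337 in CDK4/6 KD. Its folds were 2.97 (2.39 to 3.74) in the siRNA arm and 2.82 (2.17 to 3.72) in the drug arm, beside 1.19 (0.877 to 1.61) between the controls. The list's median log2 fold was -0.029 in CDK4/6 KD and -0.14 after PD0332991. CTH, like SLC6A9, was thus past 2-fold in each arm and had an interval including 1 between the controls, where SLC7A11, the cystine importer, was 3.02-fold. CBS, of the same list, fell just short of 2-fold in each arm. Its log2 fold was 0.949 in CDK4/6 KD and 0.996 after PD0332991, beside 0.116 between the controls.

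Among the enzymes that use the carried amino acids, 21 of 22 were tested. In CDK4/6 KD 3 were 2-fold or more higher and 0 lower, namely ASS1, which makes argininosuccinate (3.29-fold, 2.79 to 3.91), PSAT1 of serine synthesis (2.14-fold, 2.06 to 2.23) and GNMT, a glycine methyltransferase (2.01-fold, 0.998 to 4.46, on 26 and 12 reads). After PD0332991 5 were higher, among them SHMT2, which makes glycine from serine in mitochondria (2.20-fold, 2.07 to 2.34), PHGDH, the first enzyme of serine synthesis (2.04-fold, 1.90 to 2.20), and BCAT1, a branched-chain aminotransferase (2.03-fold, 1.88 to 2.20). ODC1, which makes putrescine from ornithine, was the 1 lower gene (0.411-fold, 0.379 to 0.445). Between the controls 0 were higher and 1 was lower, GNMT at 0.421 (0.188 to 0.847).

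Of the 20 genes by which mTORC1 senses amino acids, 1 was higher in CDK4/6 KD, SESN1, a leucine-sensing sestrin (2.49-fold, 2.13 to 2.92), and 1 was lower, RRAGC, a Rag GTPase (0.474-fold, 0.428 to 0.524). RRAGC shared its direction with SLC7A5, but it was 1.81-fold (1.63 to 2.01) in scrambled siRNA over DMSO, where SLC7A5 was 0.962-fold. After PD0332991 3 were higher and 0 lower, SESN3 at 7.61 (3.84 to 19.4) on 64 and 8 reads, C7orf60 (BMT2, a SAM sensor) at 2.17 (1.63 to 2.93) and GATSL3 (CASTOR1, an arginine sensor) at 2.88 (1.23 to 8.38) on 21 and 7 reads. SESN3 and GATSL3 were also past 2-fold between the controls, at 5.50 and 2.58, and RRAGD was at 2.12 there, while GATSL2 was at 0.325. Of 9 known regulators of the transporters, TEAD1 was higher in CDK4/6 KD (2.39-fold, 2.08 to 2.76) and HIF1A lower (0.407-fold, 0.354 to 0.466). TEAD1 was also lower in the siRNA control than in the DMSO control (0.419-fold, 0.361 to 0.484). Its level was 61.8 CPM both in CDK4/6 KD and in DMSO, beside 25.9 CPM in scrambled siRNA. ATF4 was the 1 regulator past 2-fold after PD0332991, at 2.34 (2.26 to 2.41), and was 1.36-fold (1.32 to 1.39) in CDK4/6 KD and 1.71-fold (1.65 to 1.77) between the controls.

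The genes whose pattern over the 4 libraries was most like SLC6A9 and SLC7A11, the members with the largest fold in each arm, were found as the smallest distance between centred log2 CPM values among 9228 genes averaging 100 reads or more. For SLC6A9 these included CCDC24 (distance 0.201), ULK1 (0.351), SHC2 (0.382) and KLHL24 (0.383). CCDC24 is the gene that overlaps SLC6A9. ULK1, a kinase that starts autophagy, had 252 reads in DMSO, 610 after PD0332991, 196 in scrambled siRNA and 890 in CDK4/6 KD. For SLC7A11 they were POLD4 (0.105), LMBR1L (0.371), CREBRF (0.458), FNDC4 (0.463) and C19orf80 (0.465). POLD4, a subunit of DNA polymerase delta, had 87, 260, 293 and 311 reads and so, like SLC7A11, was low in DMSO alone. Over 4 libraries these distances are descriptions and carry no test. Among the members themselves the nearest pair was SLC7A1 and SLC1A5 (0.217) and the farthest SLC7A5 and SLC6A9 (2.60).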

How the data were processed

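The authors made 3′ mRNA libraries from total RNA with a QuantSeq kit and deposited raw read counts per gene symbol, 1 table per library. The submitters' processing notes name hg19, Bowtie2 and edgeR without versions, and the counter, annotation and strand setting were not given in the sources used here. The members and gene lists were chosen with earlier results of these data known. Repeated symbols (286) were summed. Counts were scaled by TMM (edgeR 4.0.16, R 4.3.3) over 4 libraries of 8983848 to 11176880 reads, and folds used a pseudocount of 0.5 reads. Genes reaching 10 reads in at least 1 library of a comparison were tested against a 2-fold threshold, with no p-value because each group had 1 library. Intervals (exact Clopper-Pearson for folds and read ratios, exact Poisson for levels, 95%, and a normal interval on the log scale for the ratio of 2 folds) cover counting error only. PCR copies were not removed by molecular identifiers. The floor was 3 reads. From each list up to 3 genes per comparison and direction were named, ranked by the end of the interval nearest to 1. Also named were the label checks CDK4, CDK6 and MKI67, the SLC7A5 copies, marker genes and the 5 genes most like SLC6A9 and SLC7A11, of which 1 is not reported here. CCDC24 and SLC7A11-AS1, and CTH, ASNS, NUPR1 and others in comparisons where the ranking did not name them, were named after their values were seen. Gene positions came from GENCODE 29 (GRCh38), which is not the build of the counts, and promoters from RefSeq (GRCh38.p14). Alternatives were DESeq2 1.42.0 size factors, total counts, quantile normalization (limma 3.58.1), other pseudocounts, filters, thresholds and controls.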

Additional observations from a re-analysis of the deposited data

Results flagged for a closer look

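SLC3A2 and SLC7A5 were on opposite sides of 1 in the siRNA and drug arms, as were 12.9% of the 13099 genes tested in both arms. The SLC3A2 fold in CDK4/6 KD divided by that after PD0332991 was 0.593 (0.549 to 0.641), from 0.805 and 1.36. Over DMSO, however, the SLC3A2 fold in CDK4/6 KD was 0.974 (0.918 to 1.03), and the controls differed by 1.21-fold. For SLC7A5 the quotient was 0.365 (0.337 to 0.396), from 0.395 and 1.08. The intervals cover counting error only, and with 1 library per group the difference between the arms was not tested.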

How the results depend on the processing

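No paired analysis was possible because each group had 1 library, and for the same reason no replicate could be left out. No member past 2-fold changed its direction. Some list genes past 2-fold did so when the control was exchanged. Among them were SLC25A18, SLC7A10 and GNMT in CDK4/6 KD and PQLC2 after PD0332991. SLC25A18 was above scrambled siRNA in CDK4/6 KD, but it had 1.24 CPM there and 2.41 in DMSO. The number of members 2-fold or more higher in CDK4/6 KD over scrambled siRNA, 1, was 2 with total counts and 2 with quantile normalization (SLC1A4 at 2.11 in each), 2 at a 1.5-fold threshold, and 3 over DMSO. The members' median log2 fold there, -0.043, was 0.061 with total counts, which put the median of all genes at 0.10, and 0.51 over DMSO. After PD0332991 the number higher, 3, was 5 at 1.5-fold and 1 over scrambled siRNA, where the median, 0.60, was 0.17. In scrambled siRNA over DMSO the number higher, 1, was 2 at 1.5-fold. DESeq2 size factors, the other pseudocount, both filters, the most counted entry of repeated symbols and a whole interval past 2-fold moved none of these counts and medians. Of the values for single genes and lists, 114 moved and 581 did not. The exchanged control moved more of them than any scaling did. Depth limits mainly SLC6A9, with 125 to 493 reads, among the members, and list genes of under 50 reads.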
